A study of Rattus norvegicus with 6 samples.

Results

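The heat shock chaperones described here are 9 genes of the cytosol and mitochondria: Hsph1, Hspa8, Hspb1, Cryab, Hsp90aa1, Dnaja1, Dnajb1, Hspd1 and Hspe1. They were taken from the array by gene symbol, as every probe set whose platform annotation named one of them. This gave 12 probe sets for 9 of 10959 annotated genes. Of these, 9 probe sets carried 1 symbol and stood for 7 genes, while 3 were shared with another symbol: the only one of Hspa8 (with Haus8l2) and both of Hsp90aa1 (with the pseudogene Hsp90aa1-ps17). Signal on shared probe sets cannot be assigned to either gene, and they were kept out of the counts. RNA came from passage 2 mesenchymal stromal cells, a spindle-shaped cell population obtained by plating mononuclear cells and keeping those that attach. All animals were GFP transgenic rats, and each of the 3 rats, S4, S5 and S6, gave 1 culture from peripheral blood and 1 from bone marrow, grown alike. The labels name no treatment, heat shock included, and give no age or strain. Each culture was measured once on an Affymetrix RAE230A array, so the groups are 3 blood and 3 marrow cultures paired by rat.

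Chaperones hold unfolded proteins and help them to fold, and many are made in larger amounts when heat, oxidants or blocked protein degradation raise the load of misfolded protein. Small heat shock proteins such as Hspb1 and Cryab bind unfolding clients without using ATP, and HSP70 proteins then refold them in cycles driven by J-domain partners and by nucleotide exchange factors of the HSP110 family. HSP90 completes the folding of kinases and hormone receptors, and in the mitochondrial matrix the Hspd1 barrel and its Hspe1 lid enclose newly imported proteins. Heat shock factor HSF1 activates many of these genes through heat shock elements, promoter repeats of the letters GAA and their inverse TTC.

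Most heat shock chaperones did not differ detectably between blood and marrow cultures of the same rat, and the 2 that stood furthest apart were Cryab and Hsph1, both higher in the blood culture of each rat. Cryab was higher by 2.90 ± 0.61 (SE) and Hsph1 by 0.70 ± 0.18 on the log2 scale, but neither passed the threshold in limma over all probe sets (adjusted p = 0.102 and 0.162, n = 3 rats). The chaperonin pair Hspd1 and Hspe1, Hspb1 and Dnaja1 differed by 0.12 or less in either direction, and Dnajb1 lay between, at 0.41 and 0.49 on its probe sets. All differences are blood minus marrow, and the base of the deposited logarithm was read as 2 from the range of the values, so folds rest on that reading.

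None of the 9 probe sets of the members passed an adjusted p of 0.05, where 2.15% of all 8135 probe sets tested did. At an unadjusted p under 0.05 there were 2, Cryab and Hsph1, against 14.1% of all tested. The groups did not overlap for 1 of the 9, Hsph1, against 18.4% of tested probe sets with 6 values. Of these shares, the members' count at an unadjusted p was slightly above the background, and the other counts were not. Without rat S6 it was 4 of 9, with both probe sets of Dnajb1, where 8.7% of all tested had such a p. Without rat S4 the 2 were Cryab and Hspb1, and Hspb1 was then lower in blood (-0.40, limma unadjusted p = 0.037). Hsph1 had an unadjusted p of 0.058 in that limma fit. The median difference of the 9 was 0.01, and 5 of them lay above 0; over all tested probe sets the median was -0.01. All 12 member probe sets passed the filter on signal, which asked for a value above the table's median of 8.18 on at least 3 of the 6 arrays. Cryab was above it on 4 arrays, those of the 3 blood cultures and of marrow of S6. Without the filter its limma adjusted p was 0.217.

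**Figure D1:**
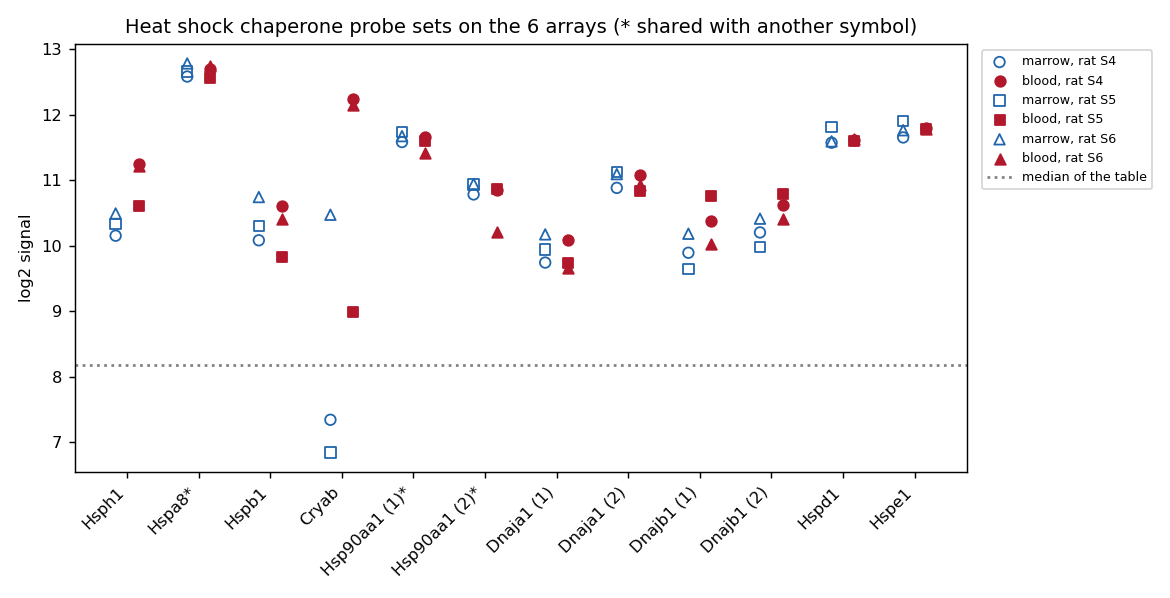
Log2 signal (vertical axis) of the 12 member probe sets on each of the 6 arrays, with open blue symbols for marrow and filled red symbols for blood cultures, a symbol shape for each rat, and a dotted line at the table's median of 8.18. Cryab spans from 6.84 to 12.23 while the arrays of Hspd1 and Hspe1 stay between 11.57 and 11.90.

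**Figure D2:**
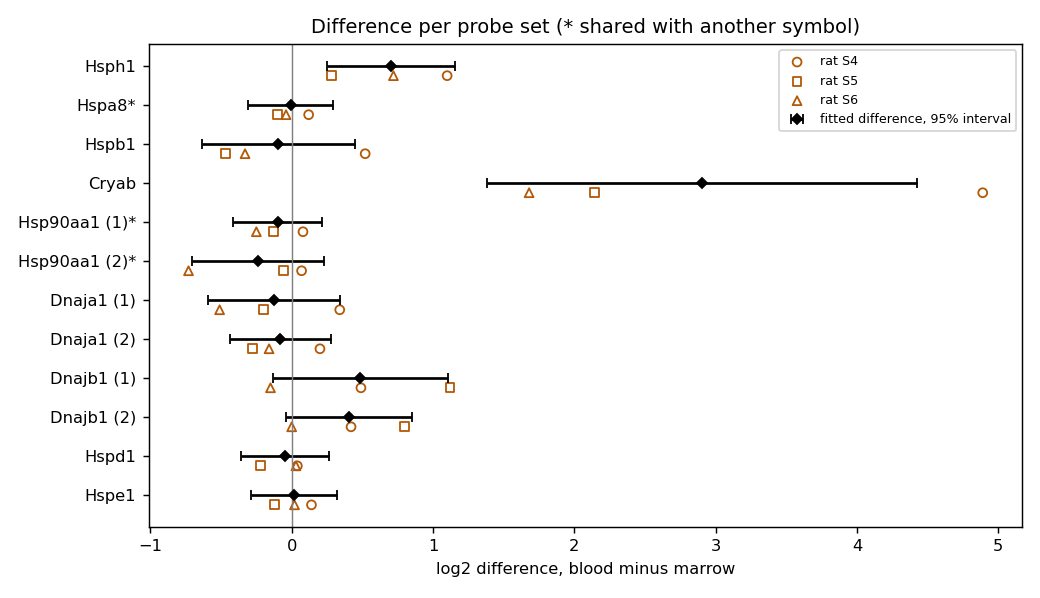
Log2 difference, blood minus marrow (horizontal axis), of each member probe set: diamonds are fitted differences with 95% intervals and open symbols the 3 rats. The intervals of Hsph1 and Cryab lie above 0, before any adjustment for the number of probe sets, and the other 10 span 0.

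The widest difference belonged to Cryab, alpha-B crystallin, a small heat shock protein abundant in lens, heart and skeletal muscle. Its log2 signal was 7.34, 6.84 and 10.47 in the marrow cultures of rats S4, S5 and S6, and 12.23, 8.98 and 12.15 in their blood cultures. Each blood culture was above the marrow culture of its own rat, yet the groups overlapped, because blood of S5 lay below marrow of S6. The within-rat differences were 4.89, 2.14 and 1.68. Means were 11.12 ± 1.85 (SD, n = 3) in blood and 8.22 ± 1.97 in marrow, 7.48-fold apart, with a 95% interval of 2.61- to 21.5-fold. Signals of marrow cultures S4 and S5 were under the table's median, where no background level is known, so the fold is approximate. A difference at least this wide was found for 0.516% of all tested probe sets. The spread within groups was wide as well: the pooled SD of Cryab was 1.91, and 0.0986% of tested probe sets had one as large, against a median of 0.17.

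Cryab lies beside another small heat shock protein gene, Hspb2, and their annotated spans overlap in the RefSeq gene table (GRCr8). Hspb2 did not pass the filter on signal and was chosen after its values were seen. It was listed at 0, 0.99 and 5.19 in marrow cultures of S4, S5 and S6 and at 7.58, 3.76 and 7.34 in their blood cultures. All 6 values were under the table's median, where no background level is known, and 1 was exactly 0. They are given as listed, with no difference or fold, and no likeness to Cryab is drawn from them. Without the filter on signal its limma adjusted p was 0.283.

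**Figure D3:**
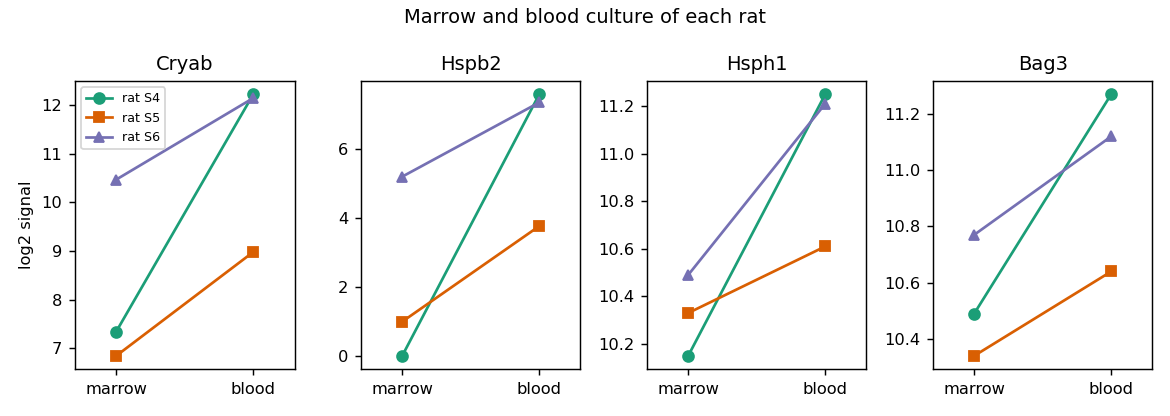
Log2 signal (vertical axis, a scale of its own in each panel) of Cryab, Hspb2, Hsph1 and the cochaperone gene Bag3 in the marrow and blood culture of each rat, joined by a line for each rat. For Cryab, Hsph1 and Bag3 all 9 lines rise from marrow to blood, with blood of S5 the lowest blood culture; the Hspb2 values all lie under the table's median of 8.18.

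Markers of muscle and of smooth muscle were read beside Cryab; in bulk RNA, fewer cells of a type and less RNA per cell cannot be told apart. Of the 6 smooth muscle and pericyte markers 2 were higher in blood cultures and 4 lower. Tagln, an actin-binding protein gene, stood at 9.98, 10.49 and 10.52 in marrow and 11.31, 10.82 and 11.64 in blood cultures, and blood minus marrow was 0.93 ± 0.21 (limma adjusted p = 0.131). For Acta2, an actin of smooth muscle, the difference was 0.61 ± 0.21 (adjusted p = 0.286). Des, desmin, was lower in the blood culture of each rat (-0.38 ± 0.14, adjusted p = 0.308). Under the table's median on all arrays lay Myh11, smooth muscle myosin, at 7.93, 6.55 and 6.65 in marrow and 6.48, 6.47 and 6.07 in blood cultures, and Rgs5, a pericyte gene, at 6.67, 6.74 and 6.56 and then 6.21, 6.51 and 6.28. Both were lower in the blood culture of each rat, and Cnn1 differed by -0.01. The log2 of the summed signal of the 6 was 11.40 to 11.75 in marrow and 11.84 to 12.40 in blood cultures. The 7 skeletal and cardiac muscle markers did not move with it, at 10.24 to 11.23 in marrow and 10.17 to 10.25 in blood cultures. Among them Myod1, the skeletal muscle regulator, stood at 5.81, 9.09 and 10.17 in marrow and 4.56, 4.56 and 3.59 in blood cultures. It was above the table's median on 2 arrays only and did not pass the filter. Of the 7, 2 passed it. Myog was lower in the blood culture of each rat (-0.34 ± 0.12, limma adjusted p = 0.286), and Tnni1 differed by 0.03 ± 0.14. None of the markers on these lists was listed at 0. The part of these markers in the Cryab difference was not tested.

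Hsph1, the HSP110 nucleotide exchange factor of HSP70, was the other member that was higher in all 3 rats. Its log2 signal was 10.15, 10.33 and 10.49 in marrow cultures of S4, S5 and S6 and 11.25, 10.61 and 11.21 in their blood cultures. The groups did not overlap, although blood of S5 lay close to marrow of S6. The differences were 1.10, 0.28 and 0.72, and the mean of 0.70 ± 0.18 is a 1.62-fold difference with a 95% interval of 1.19- to 2.22-fold. Means were 11.02 ± 0.36 (SD, n = 3) in blood and 10.32 ± 0.17 in marrow cultures. Mean differences at least this wide, in either direction, were found for 6.44% of all tested probe sets.

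Rat S5 had the smallest difference of Hsph1. Without that rat Hsph1 differed by 0.91 (adjusted p = 0.0464) and Cryab by 3.29 (adjusted p = 0.0379) in limma, so that 2 of the 9 probe sets passed where 4.99% of all probe sets did. Without rat S4 no probe set of the array passed; Cryab then differed by 1.91 (adjusted p = 0.198) and Hsph1 by 0.50 (adjusted p = 0.523). Without rat S6 they differed by 3.52 and 0.69 and did not pass (adjusted p = 0.194 and 0.574).

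The 250 bases before the annotated start of Hsph1, from RefSeq (GRCr8, chr12:10427118-10427367, plus strand), are shown because this gene had the largest difference among members with a promoter sequence here. Capitals mark 2 or more inverted GAA and TTC units.
Hsph1: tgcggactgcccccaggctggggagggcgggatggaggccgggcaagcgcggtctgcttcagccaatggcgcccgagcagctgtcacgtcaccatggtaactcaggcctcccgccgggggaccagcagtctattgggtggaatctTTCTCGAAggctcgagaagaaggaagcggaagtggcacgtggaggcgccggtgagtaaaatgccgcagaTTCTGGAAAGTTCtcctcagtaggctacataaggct
The window holds a run of 3 units, TTCTGGAAAGTTC, at bases -36 to -24 from the start, and a pair of units at -105 to -98.

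The genes whose 6 values, less their own mean, lay closest to those of Hsph1 were Ccdc47, Socs5, Adcy3, Tmem254 and LOC100911177. Their root mean square differences from Hsph1 were 0.08 to 0.11 on the log2 scale, among 6094 genes compared over 6 arrays. Socs5, a regulator of cytokine signalling, was at 9.59, 9.47 and 9.86 in marrow and 10.56, 9.94 and 10.52 in blood cultures of S4, S5 and S6. Ccdc47, which helps membrane proteins into the endoplasmic reticulum, was at 9.35, 9.63 and 9.73 in marrow and 10.34, 9.88 and 10.29 in blood. None of the 5 passed the threshold in limma (adjusted p of 0.097 to 0.201). None is on a chaperone list used here, but only 75 of the 6110 tested genes are, so their absence says little.

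The probe set that names Hspa8, the constitutive HSP70 of the cytosol, together with Haus8l2, hardly differed. It stood at 12.58, 12.66 and 12.78 in marrow and 12.70, 12.56 and 12.74 in blood cultures. The groups overlapped fully, and the difference of -0.01 ± 0.12 had a 95% interval from -0.31 to 0.29. The Hspa8 promoter is shown because it holds 2 runs of 3 units and belongs to a gene whose shared probe set differed little (GRCr8, chr8:50080264-50080513, plus strand, capitals as above).
Hspa8: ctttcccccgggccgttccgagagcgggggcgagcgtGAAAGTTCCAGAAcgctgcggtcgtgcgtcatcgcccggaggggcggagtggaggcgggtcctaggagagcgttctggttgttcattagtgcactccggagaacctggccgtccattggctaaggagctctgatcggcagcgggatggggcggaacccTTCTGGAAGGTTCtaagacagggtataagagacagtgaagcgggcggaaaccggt
These runs lie at bases -213 to -201 and -55 to -43 from the start.

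Hsp90aa1 encodes the stress-inducible form of cytosolic HSP90. Its first probe set, shared with the pseudogene, was at 11.58, 11.73 and 11.67 in marrow and 11.66, 11.60 and 11.42 in blood cultures, a difference of -0.10 ± 0.13 (95% interval -0.42 to 0.22). Its second was at 10.78, 10.93 and 10.94 in marrow and 10.85, 10.87 and 10.21 in blood cultures, a difference of -0.24 ± 0.19 (-0.71 to 0.23). Blood of S6 was the lowest value on both, and on the second it stood apart from the other 5 arrays. On both probe sets the groups overlapped, with blood slightly above marrow in S4 and below it in S5 and S6.

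The J-domain genes deliver unfolded clients to HSP70 and start its ATP cycle. Dnajb1, an inducible one, was measured by a pair of probe sets that showed the same order of rats. On the brighter it stood at 10.20, 9.98 and 10.41 in marrow and 10.62, 10.78 and 10.41 in blood cultures of S4, S5 and S6. Marrow and blood of S6 were thus equal, while blood was higher by 0.42 in S4 and 0.80 in S5. The difference of 0.41 ± 0.18 did not pass (limma adjusted p = 0.406; 95% interval -0.04 to 0.85). On the dimmer probe set the rats differed by 0.49, 1.12 and -0.15, with a mean of 0.49 ± 0.25 (adjusted p = 0.480). The rat with the largest difference was S5 for Dnajb1, and S4 for Cryab and Hsph1. Without S5 the differences of the brighter and the dimmer Dnajb1 probe set were 0.21 and 0.17, and without S6 they were 0.61 and 0.81 (limma adjusted p = 0.451 and 0.368).

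The Dnajb1 promoter (GRCr8, chr19:41431142-41431391, minus strand) is given for comparison with that of Hsph1.
Dnajb1: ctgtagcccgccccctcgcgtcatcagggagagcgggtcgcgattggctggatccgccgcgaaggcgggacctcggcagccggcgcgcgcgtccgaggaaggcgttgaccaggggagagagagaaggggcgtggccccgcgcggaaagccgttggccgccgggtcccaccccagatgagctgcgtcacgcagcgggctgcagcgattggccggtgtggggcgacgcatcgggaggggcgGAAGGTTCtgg
It holds single pairs of units, at bases -11 to -4 from the start and, beyond the printed stretch, from 18 to 25 bases after it, and no run of 3.

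Dnaja1, the other J-domain member, did not differ detectably. Its brighter probe set read 10.88, 11.12 and 11.09 in marrow and 11.08, 10.84 and 10.93 in blood cultures, a difference of -0.08 ± 0.14 (95% interval -0.44 to 0.28). Its dimmer one read 9.74, 9.94 and 10.17 in marrow and 10.08, 9.74 and 9.66 in blood cultures, a difference of -0.12 ± 0.19 (-0.59 to 0.34). On both, blood was higher than marrow in S4 and lower in S5 and S6, and the groups overlapped.

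Hspb1, or HSP25, a small heat shock protein that also binds actin filaments, spread more within each group than between them. It stood at 10.08, 10.30 and 10.74 in marrow and 10.60, 9.83 and 10.41 in blood cultures. Blood was higher by 0.52 in S4 and lower by 0.47 in S5 and 0.33 in S6. The mean difference was -0.09 ± 0.22 (limma adjusted p = 0.925), and its 95% interval, from -0.63 to 0.45, spans 0.644- to 1.36-fold. Hspb1 and Cryab belong to the same family, and their differences of -0.09 and 2.90 were not tested against each other.

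The mitochondrial chaperonin had the smallest spread within groups among the members, though by little. Hspd1, the HSP60 barrel, read 11.57, 11.81 and 11.59 in marrow and 11.61, 11.59 and 11.62 in blood cultures. Hspe1, the HSP10 lid, read 11.65, 11.90 and 11.76 in marrow and 11.79, 11.78 and 11.78 in blood cultures. In both genes marrow of S5 was the highest array and the 3 blood cultures were nearly equal. Hspd1 differed by -0.05 ± 0.12 (95% interval -0.36 to 0.26, or 0.779- to 1.2-fold) and Hspe1 by 0.01 ± 0.12 (-0.29 to 0.32, or 0.817- to 1.25-fold). Their pooled SDs within groups were 0.09, and 84.1% and 86.8% of tested probe sets had one at least as large. Close to them, at 0.10, were the shared probe set of Hspa8 and the first of Hsp90aa1 (83% and 80.5%).

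The annotated spans of Hspd1 and Hspe1 overlap in the RefSeq gene table, and the genes are read in opposite directions. Counted from the starts used for the promoter windows they would not overlap, so at least 1 span reaches past the start used here. Their promoter windows hold the same heat shock element of overlapping units, shown here on each gene's strand with 3 flanking bases (GRCr8, chr9:64084259-64084282).
Hspe1: cggTTCTAGAACCTTCCGGAAggc
Hspd1: gccTTCCGGAAGGTTCTAGAAccg
The units lie at bases -65 to -48 from the start of Hspe1 and at -242 to -225 from that of Hspd1, so a single stretch lies upstream of both starts used here.

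Promoter windows of 250 bases before to 50 bases after the start were found for 7 of the 9 members; none was matched for Cryab and Hsp90aa1. The letters searched were GAANNTTC and TTCNNGAA, each of which reads the same on the other strand, and runs of 3 alternating units, in which these pairs overlap by 1 unit. All 7 windows held at least 1 pair, against 15.9% of 33469 RefSeq windows of the same length, and 5 of 7 held a run of 3 units, against 0.798%. The 5 were Hsph1, Hspa8, Dnaja1, Hspd1 and Hspe1, with the run of Dnaja1, GAACTTTCCAGAA, from 10 to 22 bases after its start. What was counted for Hspd1 and for Hspe1 is the same stretch, so these windows are not separate cases. Of 88 windows of genes on the chaperone lists, 20.5% held a pair and 3.41% a run of 3. Hspb1 and Dnajb1 held pairs but no run of 3, among them GAAGTTTC and GAACCTTC in Hspb1. Among the 5 with such a run, the differences ranged from -0.12 to 0.70, with Hspa8 read from its shared probe set, and Hsph1 alone had a 95% interval that did not span 0. A match in these letters is a description of the window and not a measured binding site.

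**Figure D4:**
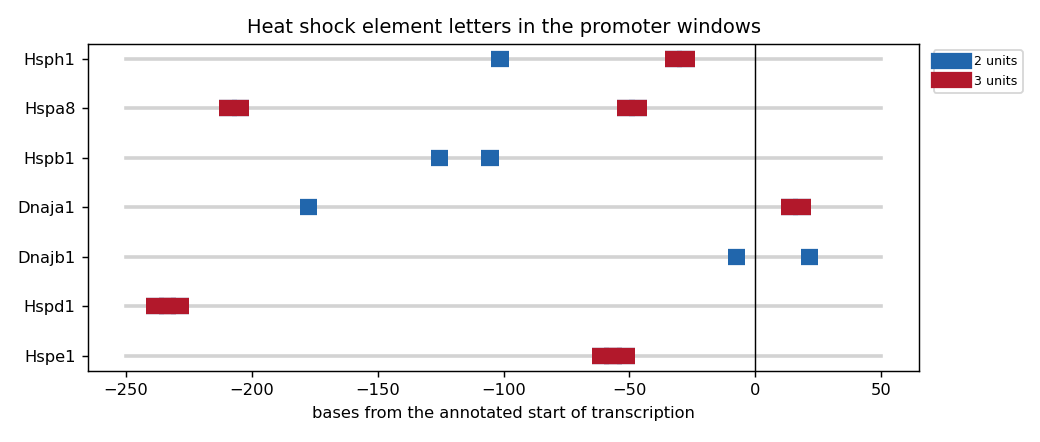
Places of heat shock element letters in the promoter windows of 7 members, in bases from the annotated start of transcription (horizontal axis), with blue for pairs of units and red for runs of 3. The run of Hsph1 ends at base -24, and those of Hspd1 and Hspe1 are the same site seen from either gene.

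The other genes of the chaperone network were read from 7 lists with 1 probe set per gene. Of their 75 tested genes none passed in limma over all probe sets, where 2.03% of all 6110 tested genes did, and 2 had an unadjusted p under 0.05, where 13.7% of all genes did. Their median difference was -0.0033, beside -0.01 over all tested genes. Of the 75, 37 lay at 0 or above, with Dnajc7 at 0, beside 48% of all tested genes above 0. The range over these genes was -0.25 to 0.48, so none of them came near the difference of Cryab.

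**Figure D5:**
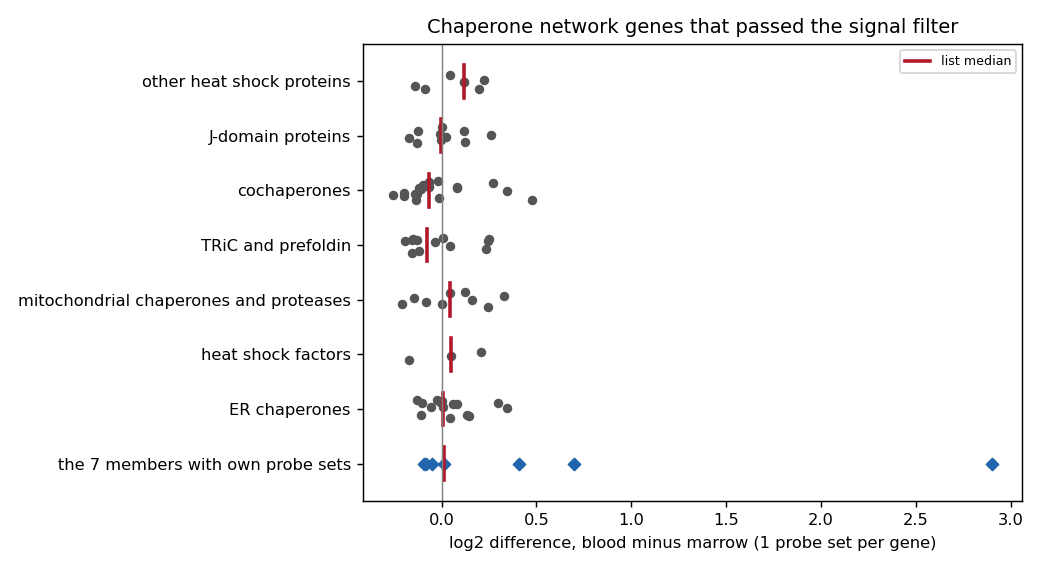
Log2 difference, blood minus marrow (horizontal axis), of each tested gene in the 7 chaperone lists (grey points), with list medians as red bars, above the 7 members that have probe sets of their own (blue diamonds). List genes lie between -0.25 and 0.48, while Hsph1 and Cryab stand at 0.70 and 2.90.

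Cochaperones, which set the pace and the fate of HSP70 and HSP90 clients, held both genes under an unadjusted p of 0.05. Of 19 tested, 5 lay above 0. Bag3, a partner of HSP70 and of small heat shock proteins in the clearance of damaged protein, was at 10.49, 10.34 and 10.77 in marrow and 11.27, 10.64 and 11.12 in blood cultures. It was higher in the blood culture of every rat, by 0.78, 0.30 and 0.35, a mean of 0.48 ± 0.15 (limma adjusted p = 0.226). Fkbp5, an HSP90 cochaperone of steroid receptors, was at 8.04, 8.10 and 8.02 in marrow and 8.45, 8.28 and 8.47 in blood cultures. The difference of Fkbp5 was 0.35 ± 0.12 (limma adjusted p = 0.296). Its marrow values were all under the table's median, where no background level is known. It passed the filter on signal through the 3 blood arrays alone. Under a stricter filter, above the median on all 6 arrays, Fkbp5 was not tested. With that filter 1 gene of the chaperone lists had an unadjusted p under 0.05 in limma. Chordc1, a further HSP90 partner, differed by 0.27 ± 0.12 (adjusted p = 0.401), with blood of all rats above all marrow values. The median of the list was -0.07.

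Of 7 tested genes among the other heat shock proteins, 5 lay above 0, with a median of 0.12 and a range of -0.14 to 0.22, and 7 others on the array did not pass the filter. Those with the smallest p were Hspa4, an HSP110 relative of Hsph1, at 0.20 ± 0.19, Hspa12a at -0.14 ± 0.14 and Hspb6 at 0.12 ± 0.14. The inducible HSP70 gene Hspa1a, named after its values were seen, was at 10.40, 9.30 and 10.39 in marrow and 10.36, 11.29 and 9.11 in blood cultures. Blood of S5 was the highest of its 6 arrays and blood of S6 the lowest. Dnajb1 had the same order of blood cultures, but how many other genes had it was not counted, so no likeness is drawn from it.

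Of 10 J-domain genes 5 lay at 0 or above, with Dnajc7 at 0. Dnajb4 differed by 0.26 ± 0.18, Dnajb2 by -0.17 ± 0.14 and Dnajb12 by -0.13 ± 0.12. The subunits of TRiC, the cytosolic chaperonin that folds actin and tubulin, and of prefoldin had a median of -0.08, with 5 of 12 above 0; Pfdn1 differed by 0.25 ± 0.12, Pfdn2 by 0.25 ± 0.13 and Cct2 by 0.23 ± 0.12. Of 9 other mitochondrial chaperones and proteases 6 lay above 0. Hspa9, the HSP70 of the mitochondrial matrix, stood at 11.28, 11.77 and 11.51 in marrow and 11.91, 11.80 and 11.83 in blood cultures, a difference of 0.33 ± 0.15 (limma adjusted p = 0.441), and its exchange factor Grpel1 differed by 0.25 ± 0.17 and the protease Htra2 by -0.21 ± 0.17.

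Heat shock factor genes showed no detectable difference, although their activity is mostly set on the protein and not on the RNA. Hsf1 was at 7.93, 8.59 and 7.93 in marrow and 8.69, 7.94 and 8.45 in blood cultures (0.21 ± 0.28), Hsf2 differed by -0.17 ± 0.12 and the factor binding protein gene Hsbp1 by 0.05 ± 0.13. Of 15 chaperones of the endoplasmic reticulum 9 lay above 0, with a median of 0.01, and Dnajb11 differed by 0.34 ± 0.17, Sdf2l1 by 0.30 ± 0.23 and Pdia4 by -0.13 ± 0.19. None of these genes passed (limma adjusted p of 0.459 or more).

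The share of members higher in blood differed between rats. In rat S4 all 9 probe sets of the members were higher in the blood culture, with a median of 0.42, where 62.7% of all tested probe sets were above 0. In S5 only 4 were higher and 5 lower, with a median of -0.12, where 36% of all tested were above 0. In S6, 4 were higher, 4 lower and 1 equal, with a median of 0, where 41.9% were above 0. The medians of all tested probe sets were 0.10 in S4, -0.08 in S5 and -0.04 in S6. With the 3 shared probe sets, which were higher in S4 and lower in S5 and S6, the medians of the members were 0.27, -0.11 and -0.10. The 4 higher in blood were Cryab, Hsph1 and both of Dnajb1 in S5, and Cryab, Hsph1, Hspd1 and Hspe1 in S6.

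Beside this, the summed signal of the 14 leukocyte and macrophage markers differed most in rat S4. Not all of them rose in blood of S4: Aif1, on its brighter probe set, differed by -0.43 and Cd74 by -0.44, while the others were higher. The log2 of their summed signal was 12.78, 13.29 and 13.60 in marrow and 13.68, 13.40 and 13.57 in blood cultures of S4, S5 and S6, so marrow of S4 was the lowest of the 6 arrays. Of 9 tested markers 8 lay above 0 and none passed, and no marker was listed at 0. Several markers of macrophages were well above the table's median in both groups, among them Ctss at 9.22 to 10.54 in marrow and 10.07 to 10.59 in blood cultures and Tyrobp at 9.79 to 10.64 and 10.42 to 10.76, while Ptprc, Itgam, Cd74, Coro1a and Csf1r did not pass the filter. The part of these markers in the differences of S4 was not tested. Of 9 stromal markers 8 were above the table's median on all 6 arrays, among them Col1a1 at 12.32 to 12.69 in marrow and 12.99 to 13.02 in blood cultures. Thy1 was under it on 3 arrays, at 9.38, 7.68 and 9.84 in marrow and 7.02, 9.42 and 7.41 in blood cultures. Eng, endoglin, was the 1 stromal marker that passed (1.62 ± 0.23, limma adjusted p = 0.038). Array medians were 8.12 to 8.22, and 3' minus 5' signal was 0.24 to 0.38 for beta-actin and 0.21 to 0.30 for GAPDH. The cultures of a rat were run on the same fluidics station, but blood and marrow arrays on different modules and each blood array was scanned before the marrow array of its rat, so source and module or scan order cannot be told apart.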

How the data were processed

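Affymetrix RAE230A arrays of 3 blood and 3 marrow cultures were used, 1 column each of the deposited table of log2 values; per the labels the samples are paired by rat. GCOS is the only tool in the submitters' processing notes, and how probe sets were summarised, background-corrected and normalized was not given in the sources used here. The deposited values were used as they are (pseudocount 0), and their log base was read from their range. The deposited instrument files hold other values, per the file headers station, module and scan settings, read for batches only.

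Of 15923 probe sets, 57 controls and those not above the median of all values (8.18) on at least 3 arrays were left out, which kept 8135. Of all probe sets 12789 had 1 symbol, 312 several and 2822 none; for lists, the brightest kept probe set stood for a gene. limma 3.58.1 in R 4.3.3 (lmFit, eBayes, two-sided) was run with the rat as a block, since the design text pairs cultures by animal, and Benjamini-Hochberg adjustment over all probe sets at 0.05. Deviations of same-rat arrays correlated at -0.29, 0.295 and 0.326.

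The fit was tested on simulated data for this comparison over 8113 probe sets with 6 values: of 200 changed probe sets in each run, at differences of 1, 2 and 3 on the log2 scale, it recovered 44.5%, 86.5% and 98%. These shares need not hold for Cryab, whose pooled SD within groups was 1.91 against a median of 0.17. The difference of Hsph1, 0.70, was under the smallest one simulated. The members and lists were chosen with earlier results of these data known. Genes were named by rule: all members, up to 3 list genes with the smallest p, and the 5 closest to Hsph1. Heat shock elements were searched in RefSeq windows (GRCr8) with Python 3.11.15; figures used matplotlib 3.10.9, pandas 2.3.3 and numpy 2.4.6. Alternatives changed the block, filter, scaling, offset, variance prior and rats.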

Additional observations from a re-analysis of the deposited data

How the results depend on the processing

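With 3 pairs, the number of arrays limits every value, and levels under the table's median have no known background. The count of called member probe sets, 0, moved only when rat S5 (replicate 2) was left out, to 2, with Cryab at 3.29 and Hsph1 at 0.91 now past the threshold; over the 3 fits without a rat it ranged from 0 to 2. Without a rat, Cryab ranged from 1.91 to 3.52 and Hsph1 from 0.50 to 0.91. Signs turned only in such fits and only for differences that did not pass: Hspb1 to 0.10 without S5 and 0.03 without S6 (-0.40 to 0.10 in all), Dnaja1 to 0.07 without S6 and 0.02 without S5 (-0.36 to 0.07 and -0.22 to 0.02), Hspd1 to 0.035 without S5 (-0.095 to 0.035) and Hspe1 to -0.05 without S4 (-0.05 to 0.08). In all, 99 of 107 member values kept direction and side of the threshold. Part of this count was fixed in advance. Leaving out the block and changing the filter or variance prior cannot alter a difference, only its SE and p. Setting values listed at 0 to missing changed nothing for the members. Leaving out the replicate block cannot change a difference here, because each rat gave 1 blood and 1 marrow culture. It changed the SE of Cryab from 0.61 to 1.22 (limma unadjusted p = 0.0503, adjusted p = 0.367). The SE of Hsph1 went from 0.18 to 0.20 (adjusted p = 0.185). Dropping the pairing changed no call among the member probe sets. The count of all called probe sets, 175, was 130 without the block, 82 without a filter, 104 after scaling, 107 after quantile normalization, 0, 406 and 44 without S4, S5 and S6, and 76 with the module block below. The count over the chaperone lists was 0 (0 to 9 genes at an unadjusted p under 0.05) in every fit named here, that of members at an unadjusted p was 4 without S6 against 2, and the median of the members ranged from -0.05 to 0.10. Under the stricter filter Cryab was not tested. The module as a block could not be fitted with the rat term; as a random block without it, an alternative chosen after seeing the data, Cryab differed by 2.84 (adjusted p = 0.554) and Hsph1 by 0.67 (adjusted p = 0.316). The count with the 3 shared probe sets, also added after seeing the data, was 0. The cause of these changes was not tested.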
